A study of Mus musculus with 4 samples.

Results

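Blood B cells that carried messenger RNA of Vpreb3 or Cd93 were examined in mice with acute lymphoblastic leukaemia that received dasatinib, which inhibits tyrosine kinases. A cell barcode counted as a B cell when its summed Cd79a, Cd79b and Ms4a1 UMIs (unique molecular identifiers, 1 per captured RNA molecule) were at least 3. Its summed Cd3d, Cd3e, Cd3g, Csf1r, Csf3r and Ncr1 UMIs, which mark T cells, myeloid cells and NK cells, had to be at most 1, and it could hold no UMI of Cdkn2a or of the added GFP_1 sequence. Within these B cells, 1 Cd93 UMI or 2 Vpreb3 UMIs selected a cell. The rule took 1172 of 11241 B cells, out of 15439 barcodes that passed the filters and 16157 barcodes in all. By library, 210 and 363 cells were selected in Relapsed, against 262 and 337 in Cured.

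All 12 mice were C57BL/6J, 10 weeks old, and carried leukaemia. Blood leukocytes were taken after 1 week of dasatinib, with every mouse in remission, and frozen. Treatment then ran for 4 more weeks, and mice were sorted by outcome at day 100 into Relapsed (6 mice) and Cured (6 mice), so both groups were under the same drug at sampling. After thawing and a sort for live cells, each library was made from a pool of 3 mice, with 2 libraries per group. The pool is therefore the replicate, and p-values between groups are judged against the spread between pools. Those of selected against other B cells, compared within each library, are judged against how that difference varied over pools. No untreated or leukaemia-free group was analysed here.

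B cells leave the bone marrow as transitional cells, which in the mouse bear CD93, much surface IgM and high CD24, and which gain IgD, CD21 (Cr2) and CD23 (Fcer2a) as they become mature follicular cells. Vpreb3 encodes a small immunoglobulin-like protein of the endoplasmic reticulum that binds newly made heavy chains in precursor and immature B cells. Precursor cells also use Vpreb1 and Igll1, the surrogate light chain, and the recombinase genes Rag1 and Rag2, which are switched off before cells reach the blood.

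The libraries held 7184045 and 9859508 UMIs in Relapsed, and 9257402 and 10840397 UMIs in Cured. Selected cells had median depths of 1961.5 and 2066 UMIs in Relapsed, against 2259 and 2432 UMIs in Cured. Other B cells had medians of 1852 and 2024 UMIs in Relapsed, against 2235 and 2335 UMIs in Cured. Selected cells were thus slightly deeper than other B cells in all 4 libraries, and Cured B cells were deeper than Relapsed ones. Libraries shared 114 kept barcodes over all pairs, and none of these was a selected cell in both.

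The cells were not set apart from other B cells by the markers behind their working name, transitional-like: Cd93 was rare, and Cd24a and Ighm were carried but did not pass the test against other B cells. Ly6d, another gene of the immature list, was higher. Cd93, the surface marker that defines transitional cells in the mouse, was seen in 2 and 8 B cells of the Relapsed libraries, against 4 and 2 B cells of the Cured libraries, always as 1 UMI. The other arm of the rule supplied most of the cells: 208 and 355 cells in Relapsed and 258 and 335 cells in Cured were selected on Vpreb3 alone. Only 6 cells met both arms. Pooled, the 16 Cd93-carrying cells held Ighd at 846 CPM (UMIs of a gene per 1000000 UMIs of the pooled cells; exact 95% interval 547 to 1248, counting error only) and Fcer2a at 338 CPM (162 to 622). Those are transcripts of mature cells, and in other B cells the pooled levels were 673 CPM for Ighd and 337 CPM for Fcer2a. The myeloid genes Lyz2, Fcer1g and Tyrobp were at 0 UMIs in the 16 cells.

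Of 10 mature follicular transcripts 8 were lower in selected than in other B cells, mostly by little, with a median log2 fold change of -0.03, while 4276 of all 8705 genes tested were lower. Of the 10, 4 had an unadjusted p under 0.05, as 7.33% of all genes tested had, and 1, Fcmr, passed the test, where 0.195% of all genes tested passed as lower. Ighd, which encodes the IgD heavy chain, was at 977 and 576 CPM in the selected cells of Relapsed and 519 and 562 CPM in those of Cured. In other B cells it was at 1026 and 693 CPM in Relapsed and 533 and 578 CPM in Cured. Ighd was thus a little lower in the selected cells of every library, with a log2 fold change of -0.09 ± 0.04 (SE) that missed the test (adjusted p = 0.679, edgeR quasi-likelihood test over all genes, library as a block). Fcer2a, the low-affinity IgE receptor CD23, was at 336 and 363 CPM in selected cells of Relapsed and 379 and 421 CPM in those of Cured. In other B cells it was at 334 and 334 CPM in Relapsed and 326 and 351 CPM in Cured. Its log2 fold change was 0.18 ± 0.05, higher in selected cells in 4 of 4 libraries, and also missed the test (adjusted p = 0.226).

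Cd24a and Ighm, both high on transitional cells, did not pass the test. Cd24a, the heat-stable antigen, was at 244, 306, 280 and 299 CPM in selected cells (Relapsed 1 and 2, then Cured 1 and 2), against 239, 293, 281 and 296 CPM in other B cells. Its log2 fold change was 0.04 (95% interval -0.08 to 0.16, adjusted p = 0.953). Ighm, the IgM heavy chain, had UMIs in 84.0% to 96.2% of selected cells by library. It was at 1788, 1165, 951 and 964 CPM in selected cells, against 1790, 1133, 941 and 951 CPM in other B cells, a log2 fold change of 0.04 (-0.03 to 0.10, adjusted p = 0.897). Of the precursor and leukaemia genes, Igll1, Rag1, Rag2, Dntt, Kit and BCR_ABL_1 were at 0 UMIs in all selected cells. In the 134 B-lineage cells set aside for Cdkn2a or GFP_1 UMIs, BCR_ABL_1 and Dntt were also at 0 UMIs. Igll1 and Rag1 were each in 1 of those 134 cells, so zeros of these 4 genes do not set selected cells apart from them. Over all 1172 selected cells, Vpreb1 gave 3 UMIs, Myb 5, Il7r 8, Sox4 10 and Lef1 10. These counts limit what can be said of low transcripts at this depth. The cells are therefore called selected B cells here, after the rule.

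**Figure D1:**
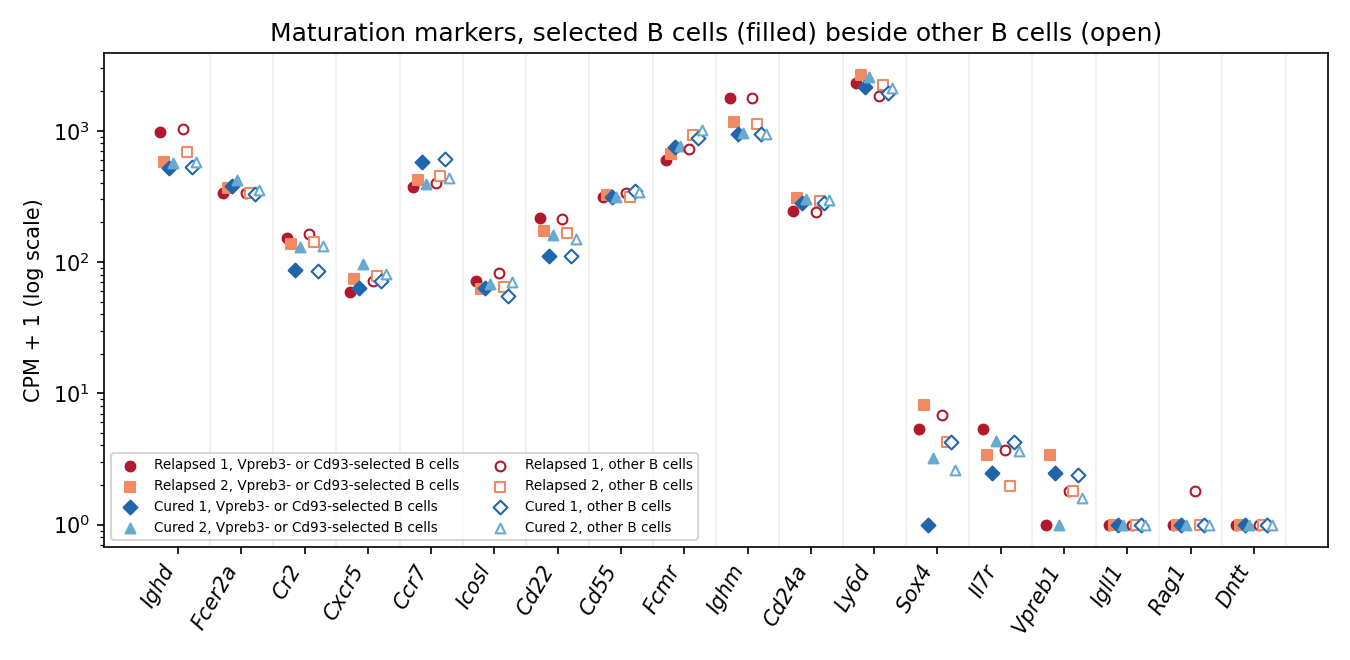
CPM plus 1 on a log axis for 18 maturation genes, with 1 point per library for selected B cells (filled, left) and other B cells (open, right). Mature genes such as Ighd and Fcer2a overlap between both classes, and precursor genes such as Igll1 and Dntt lie at 0 CPM.

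Vpreb3 itself was a common low-level transcript of blood B cells. At least 1 UMI was found in 30.8% and 32.8% of B cells in Relapsed, and in 30.9% and 32.5% in Cured. The B cells with exactly 2 UMIs, just inside the rule, numbered 141 and 240 in Relapsed and 172 and 227 in Cured, and those with exactly 1 UMI, just outside it, numbered 439 and 713 in Relapsed and 593 and 676 in Cured. The counts fell off smoothly with no gap at the threshold. Vpreb3 was near absent from other leukocytes: 4 of 1253 T cells, or 0.319% (exact 95% interval 0.0870 to 0.815), held a UMI at a median depth of 3083 to 3462 UMIs, against 24.0% of the B cells that the rule left out. The Vpreb3 gene lies on the plus strand of chromosome 10, from 75943057 to 75949657 (GRCm38), and an antisense pseudogene overlaps it there. The sources used here do not say how counting treated strand.

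**Figure D2:**
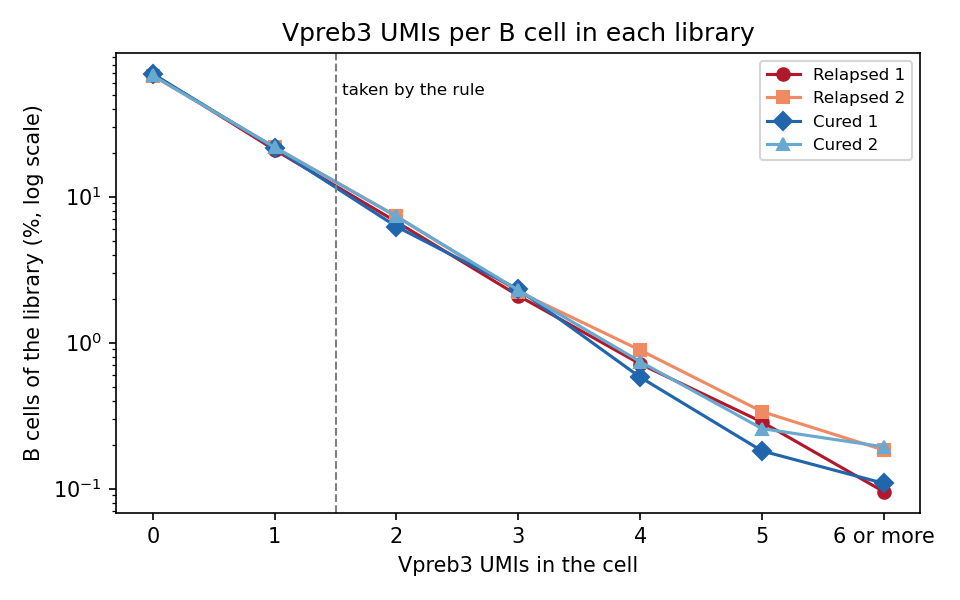
Share of each library's B cells (percent, log axis) by the number of Vpreb3 UMIs in the cell, with the rule's threshold as a dashed line. The 4 libraries fall off side by side, with 30.8% to 32.8% of B cells holding at least 1 UMI.

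The share of selected cells among B cells did not separate the groups. It was 10.0% and 11.1% in Relapsed, against 9.48% and 10.8% in Cured, and the libraries overlapped. The means were 10.55% ± 0.784 in Relapsed and 10.2% ± 0.962 in Cured (SD, n = 2 each). The log2 ratio was 0.065 (p = 0.648, edgeR quasi-likelihood test on cell counts; exact two-sided permutation p = 0.667, where 0.3333 is the smallest possible). Each library's own exact interval was about 2 percentage points wide, 8.75% to 11.4% in Relapsed replicate 1 for example.

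At equal depth, with the rule judged again, the share was higher in both Relapsed libraries than in both Cured libraries. With every cell thinned to 1000 UMIs and shallower cells left out (81 and 129 B cells in Relapsed, 114 and 167 in Cured), the rule took 4.87% and 4.63% of B cells in Relapsed, against 3.01% and 2.95% in Cured. The log2 ratio was 0.66 (edgeR p = 0.00371; exact permutation p = 0.3333, the smallest that 2 libraries against 2 allow). Over 5 random draws the log2 ratio lay between 0.41 and 0.66, and the edgeR p, from 0.00371 to 0.211 beside the same exact permutation p, was past 0.05 in 4 of them. The draw given above had the highest ratio of the 5, and the draw that missed had 0.47. The edgeR p also followed how closely the libraries of a group agreed in a draw. That fitted spread (quasi-dispersion) was 0.0744 to 0.502 in the draws past 0.05, less than counting error alone gives. It was 2.96 in the draw that missed. Both Relapsed libraries stood above both Cured libraries in each draw. The draws reuse the cells of the same 4 libraries, so their agreement is no replication. The whole rule was judged again on the thinned counts. A cell set aside for Cdkn2a or GFP_1 UMIs could therefore enter once thinning removed them. Such set-aside cells numbered 32 and 68 in Relapsed, against 3 and 31 in Cured, at median depths of 4524.5 to 5303 UMIs. They held Vpreb3 at 913 and 924 CPM in Relapsed, against 774 and 504 CPM in Cured, and their part in the share was not tested. Depth moved with the groups, with medians of 1862 and 2030 UMIs over all B cells in Relapsed, against 2239 and 2346.5 in Cured.

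The rule rests on Vpreb3, so its level over all B cells restates that share and is a description only. It was 232 and 236 CPM in Relapsed, against 191 and 197 CPM in Cured, and the libraries did not overlap. The fitted log2 fold change was 0.27 ± 0.13 (SE). Over all B cells, 0.0% of 10256 genes passed in this comparison, 898 (8.76%) had an unadjusted p under 0.05, and 46.0% had libraries that did not overlap between groups. DESeq2 called 7 genes in it. A level that separates the libraries was thus common in these data. Counted per cell and not as CPM, Vpreb3 averaged 0.464 and 0.508 UMIs per B cell in Relapsed, against 0.448 and 0.487 in Cured, which overlapped.

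Selected cells differed from other B cells of the same libraries in a small set of genes. Of 8705 genes tested, 39 passed (0.448%), with 22 higher (0.253%) and 17 lower (0.195%) in selected cells, and 638 (7.33%) had an unadjusted p under 0.05. Vpreb3 and Ms4a1 are among the higher ones, but the rule used both and nothing is read from them. Among the others Ly6d, Ifi30 and Pfn1 rose, and Apoe, Ephx1 and the IgM receptor gene Fcmr fell. The 17 genes named by rule had the same sign in 4 of 4 libraries, which 15.3% of all tested genes also had. Calls depended on depth and on the library block: of those 17 genes, 2 (Ifi30 at 0.76 and Apoe at -0.60) passed with cells thinned to 1000 UMIs, where 382 cells met the rule, and 0 passed without the block, with the signs of all 17 kept in both.

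Ly6d encodes a surface protein of the Ly6 family that marks early commitment to the B lineage. It reached 2292 and 2636 CPM in selected cells of Relapsed and 2161 and 2556 CPM in those of Cured, against 1847 and 2212 CPM in other B cells of Relapsed and 1945 and 2126 CPM in those of Cured. The log2 fold change was 0.26 ± 0.03 (SE), and Ly6d was higher in selected cells within each library, although the ranges over libraries overlap. Ifi30 encodes a thiol reductase that unfolds proteins in the endosome for antigen presentation. It was at 358, 405, 274 and 412 CPM in selected cells, against 211, 285, 201 and 334 CPM in other B cells (Relapsed 1 and 2, Cured 1 and 2), a log2 fold change of 0.51 ± 0.06. Leaving out 6 cells with 10 or more Vpreb3 UMIs, a choice made after seeing the data, gave 0.37 for Ifi30 and 0.24 for Ly6d, both still past the test.

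The other genes that rose were modest in size. Pfn1 (profilin, which loads actin monomers) averaged 2245 ± 362 CPM in selected cells and 1959 ± 335 CPM in other B cells (SD over 4 libraries), a log2 fold change of 0.22. Actb (beta-actin) rose by 0.15, Cfl1 (cofilin, which severs actin filaments) by 0.18 and Coro1a (coronin, an actin-binding protein of leukocytes) by 0.16. Myl12b, a myosin light chain, rose by 0.27 and Abi3, a regulator of actin assembly, by 0.55. Cib1, a calcium-binding protein, rose by 0.37, Cdk2ap2, a cell-cycle associated protein, by 0.31, Hnrnpa3, an RNA-binding protein, by 0.25, and Crip1, a LIM-domain protein, by 0.22. Adjusted p-values of these 10 genes ran from 2.21e-07 for Pfn1 to 0.042 for Cib1 (edgeR). With 1 library left out, 7 of the 10 missed the test at least once. Abi3 missed it without any 1 of the 4 libraries. Cib1, Cdk2ap2, Hnrnpa3, Crip1, Cfl1 and Coro1a missed it without Relapsed replicate 2, at 0.36, 0.25, 0.19, 0.18, 0.16 and 0.12. Cib1 also missed it without either Cured library (0.35 and 0.32), Cdk2ap2 and Crip1 without Cured replicate 1 (0.31 and 0.17), and Hnrnpa3 and Cfl1 without Relapsed replicate 1 (0.24 and 0.17).

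Fewer of the named genes fell in selected cells. Fcmr, the Fc receptor for IgM, was at 593 and 669 CPM in selected cells of Relapsed and 756 and 771 CPM in those of Cured, against 722 and 923 CPM in other B cells of Relapsed and 876 and 1013 CPM in those of Cured. Its log2 fold change was -0.32 ± 0.04. Apoe, the lipid carrier apolipoprotein E, was at 311, 308, 309 and 246 CPM in selected cells, against 393, 432, 538 and 427 CPM in other B cells, so that the classes did not overlap, and its log2 fold change was -0.59 ± 0.06. Ephx1, a microsomal epoxide hydrolase, fell by 0.61 on the log2 scale, at 58.2, 78.6, 63.6 and 52.1 CPM in selected cells and 87.0, 105, 92.9 and 103 CPM in other B cells, again without overlap. Sp140, a nuclear body protein, fell by 0.37 and the nuclear RNA Malat1 by 0.09. Sp140 missed the test without Relapsed replicate 1 (-0.33) and without Cured replicate 1 (-0.32).

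**Figure D3:**
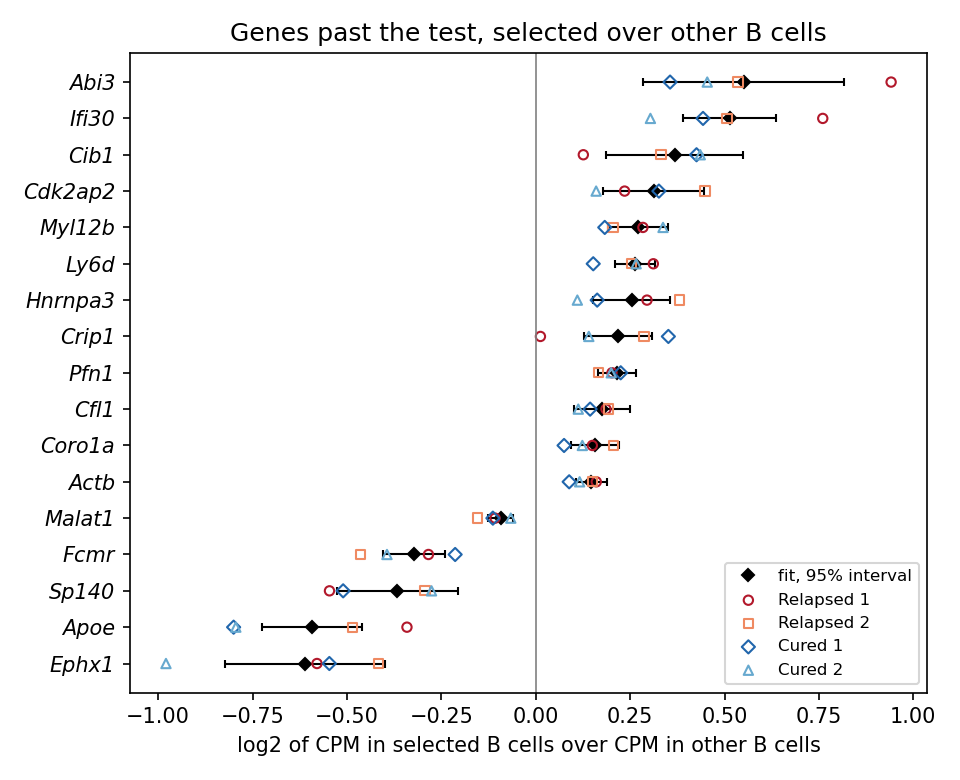
Log2 of the level in selected over other B cells for the 17 named genes, with the fitted value and its 95% interval (black) and each library's own ratio (coloured). Ly6d lies near 0.26 and Apoe near -0.59, and all 4 libraries share the sign for each gene.

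The lists of B cell genes showed few calls. The median over all genes tested was 0.0040. Within the mature follicular list, where Fcmr alone passed, Cr2 (complement receptor 2) was at -0.01, Cxcr5 (the follicle homing receptor) at -0.003, Ccr7 (the T zone homing receptor) at -0.10, Icosl at -0.01, Cd22 (an inhibitory receptor) at 0.08 and Cd55 at -0.06, none past the test. Of 5 tested marginal zone genes, 1 fell: Cd9, a tetraspanin, at 8.63, 10.7, 2.96 and 12.2 CPM in selected cells against 26.4, 27.2, 21.7 and 24.0 CPM in other B cells, a log2 fold change of -1.44 ± 0.26 (adjusted p = 0.000699). The list's median was -0.04. Of 12 immature B cell genes 3 were tested and 1 rose (Ly6d).

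B cell receptor signalling genes gave 0 calls of 23, with a median of 0.05. Syk and Blk, kinases of the receptor, were at -0.25 and -0.24 (adjusted p = 0.105 and 0.133, edgeR). B cell transcription factors gave 0 of 24, with Spib at 0.38 (0.24 without Relapsed replicate 1), Ebf1 at 0.08 and Mef2c at -0.10. Survival genes gave 0 of 17, with Bcl2 at -0.34, Bcl2a1b at -0.47 and Mcl1 at -0.20. Class II antigen presentation gave 0 of 11, with the invariant chain Cd74 at 0.04 (adjusted p = 0.060). Homing genes gave 0 of 16, with Cxcr4 at 0.32, and type I interferon genes gave 0 of 23, with Rtp4 at 0.68. No member passed among 18 immediate early, 10 heat shock, 9 cell cycle, 9 class I, 11 Src, Abl and Btk family or 7 antibody constant genes either, where Iglc1, a lambda constant gene, came closest at 0.26 (adjusted p = 0.069). All 13 mitochondrially encoded genes were lower in selected cells, 3 of them past the test, with a median of -0.07. Of all 8705 genes tested, 4276 were lower and 0.195% passed as lower. Mitochondrial UMIs made up 2.74% and 2.34% of the selected cells in Relapsed and 2.08% and 2.22% in Cured, against 2.90% and 2.47% of other B cells in Relapsed and 2.25% and 2.41% in Cured.

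Some of these differences followed the Vpreb3 count of the cell at every step, and others did not. The genes for this look were chosen after their values were seen, and it is a description with no test. Its bin of 3 or more UMIs includes the 6 cells with 10 or more, and the steps were not redone without them. Ly6d averaged 1982 ± 146 CPM in cells with 0 Vpreb3 UMIs, 2188 ± 235 CPM with 1, 2277 ± 213 CPM with 2 and 2653.5 ± 315 CPM with 3 or more (SD over 4 libraries), and it increased at every step in 4 of 4 libraries. Pfn1 did the same in 4 of 4 libraries. Fcmr averaged 917 ± 124, 780 ± 116, 733 ± 91.1 and 631 ± 69.7 CPM over the same bins, and it decreased at every step in 3 of 4 libraries. Apoe averaged 474 ± 64.6, 365 ± 57.1, 299 ± 35.2 and 273 ± 31.9 CPM, also decreasing at every step in 3 of 4. Ephx1 averaged 102 ± 9.63 CPM with 0 and 53.7 ± 13.6 CPM with 3 or more, and decreased at every step in 2 of 4. Ifi30 averaged 247 ± 55.8, 291 ± 86.7, 294 ± 57.3 and 497 ± 161 CPM and increased at every step in 0 of 4 libraries, with 2 UMIs above 1 UMI in 1 of 4. Cd24a averaged 280 ± 19.4, 268 ± 51.4, 276 ± 28.8 and 299 ± 31.3 CPM, with no steady direction in any library. Depth moved a little with the bins: in Relapsed replicate 1 the median was 1842.5 UMIs at 0, 1883 at 1, 1959 at 2 and 1986 at 3 or more, and its part in the steps was not tested.

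**Figure D4:**
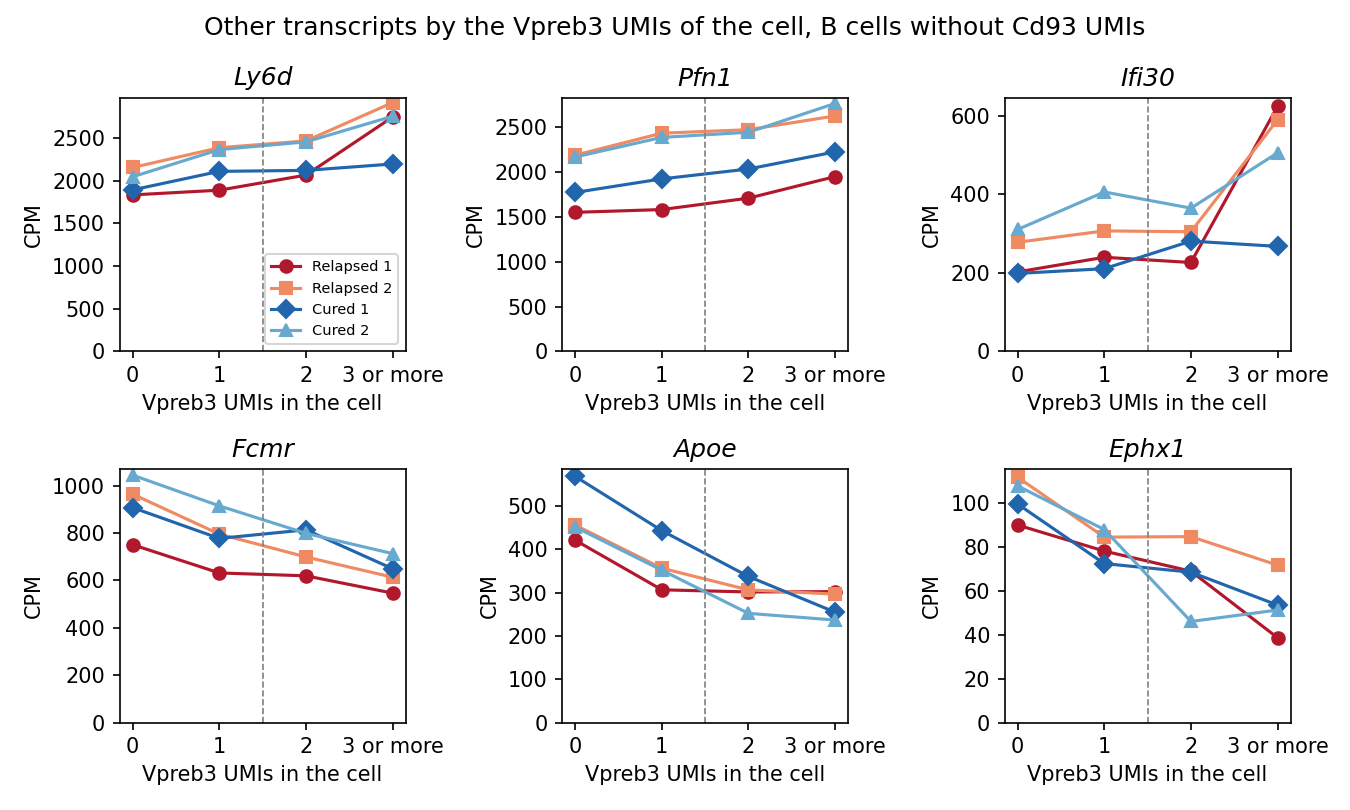
CPM of 6 genes by the Vpreb3 UMIs of the cell, 1 line per library, in B cells without Cd93 UMIs, with the rule's threshold as a dashed line. Ly6d and Pfn1 increase at every step in 4 of 4 libraries. Fcmr and Apoe decrease at every step in 3 of 4, and Ifi30 increases at every step in 0 of 4. The last bin includes the cells with 10 or more Vpreb3 UMIs.

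In a few selected cells Vpreb3 was far above the rest. There were 6 cells with 10 or more Vpreb3 UMIs: 12 and 20 UMIs in Relapsed replicate 1, 22, 26 and 13 in Relapsed replicate 2, and 10 in Cured replicate 2. Pooled, these 6 cells held no Fcer2a or Cr2 UMI, H2-Aa (a class II chain) at 299 CPM and Ly6d at 5555 CPM. The other selected cells held Fcer2a at 385 CPM, H2-Aa at 6727 CPM and Ly6d at 2408 CPM. The B-lineage cells that the rule set aside for Cdkn2a or GFP_1 UMIs, 134 in all, held Vpreb3 in 72.4% of cells, Fcer2a at 41.3 CPM, H2-Aa at 905 CPM and Ly6d at 3970 CPM. In Fcer2a, H2-Aa and Ly6d the 6 cells lay closer to those cells than to the other selected cells, which is a description with no test. None of the 6 held an Igll1 UMI, which only 1 of the 134 set-aside cells held. The cell of Relapsed replicate 2 with 22 Vpreb3 UMIs held 2 of the 3 Vpreb1 UMIs of all selected cells. The cell of Relapsed replicate 1 with 12 Vpreb3 UMIs held 738 UMIs of the haemoglobin gene Hbb-bs.

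Between the groups, few genes differed within selected cells. Apart from variable segments 8 passed, and for 6 of these the richest cell of each library held 72.9% to 100% of the UMIs of the higher group. Of 6084 genes tested, 16 passed (0.263%), with 6 higher (0.0986%) and 10 lower (0.164%) in Relapsed, while 419 (6.89%) had an unadjusted p under 0.05 and 37.9% had libraries that did not overlap. The other 8 were immunoglobulin variable segments, with UMIs in 2 (Igkv12-38) to 38 (Ighv3-6) selected cells of the higher group. The count depended on single libraries: it was 373 without Relapsed replicate 2, 44 without Relapsed replicate 1, 32 without Cured replicate 1 and 36 without Cured replicate 2, where the lone library of a group is assumed to vary like the others. Gzma, a granzyme of NK and T cells, gave 35 and 77 UMIs in Relapsed, against 5 and 1 in Cured, and 31 and 77 of the Relapsed UMIs came from 1 cell in each library. Its log2 fold change was 4.41 ± 0.46. Ccl5, a chemokine of T and NK cells, gave 55 and 89 UMIs in Relapsed, against 12 and 20 in Cured, with 45 and 75 of the Relapsed UMIs in 1 cell each. Nkg7, a cytotoxic granule gene, gave 9 and 18 UMIs, each from 1 cell, in Relapsed, against 0 and 0 in Cured, and no fold is given against 0 counts. It missed the test without Relapsed replicate 1.

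Apart from variable segments, the genes that were lower in Relapsed had the same structure. S100a8, a neutrophil calprotectin subunit, gave 14 and 14 UMIs in Relapsed, against 142 and 249 in Cured, of which 126 and 227 lay in 1 cell each. Its partner S100a9 gave 16 and 9 UMIs in Relapsed, against 138 and 241 in Cured, of which 119 and 216 lay in 1 cell each. Their log2 fold changes were -3.46 ± 0.29 and -3.55 ± 0.35. Ccl6, a myeloid chemokine below the level set for naming genes, was also lower, with 3 UMIs in Relapsed and 48 in Cured. The share of selected cells with a S100a8 or S100a9 UMI was 13.8% and 4.13% in Relapsed, against 12.6% and 12.5% in Cured, and it was close to that in other B cells of the same libraries, 12% and 4.16% in Relapsed and 11.4% and 12.6% in Cured.

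**Figure D5:**
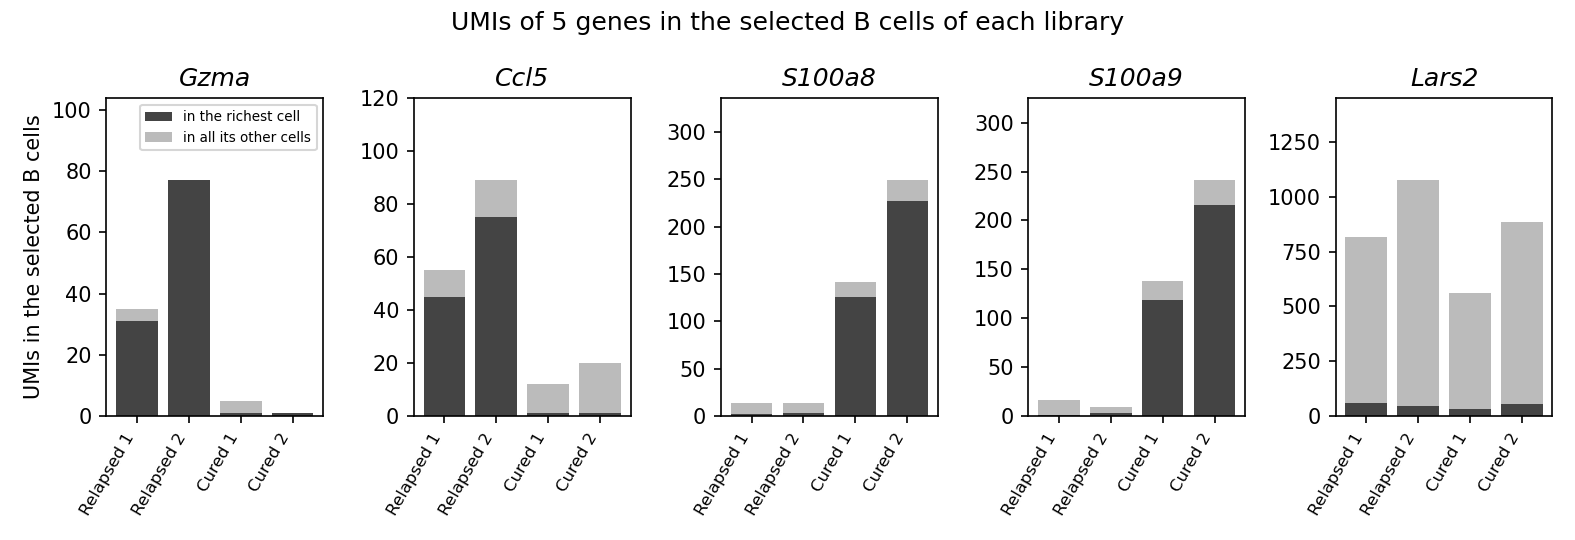
UMIs of 5 genes past the test between groups, in the selected B cells of each library, split into the richest cell (dark) and all other cells (light). Gzma, Ccl5, S100a8 and S100a9 lie mostly in 1 cell of each library of the higher group, while Lars2 is spread over many cells.

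Marker lists of other cell types hold some of the genes called above, so these sums restate those calls and add no separate evidence. The NK list holds Gzma and Nkg7, and the neutrophil list holds S100a8 and S100a9. Summed over its 4 genes, the NK list stood at 108 and 125 CPM in selected cells of Relapsed, against 8.88 and 4.44 CPM in Cured. Gzma alone was at 75.5 and 91.7 CPM in Relapsed. The neutrophil list of 4 genes stood at 73.3 and 27.4 CPM in Relapsed, against 423 and 569 CPM in Cured. In Cured, S100a8 alone was at 210 and 276 CPM and S100a9 at 204 and 267 CPM. The red cell list of 4 haemoglobin genes stood at 6636 and 2042 CPM in Relapsed, against 11.8 and 6.65 CPM in Cured, but 0 of the 4 passed. Of the Hbb-bs UMIs, 738 of 2030 in Relapsed replicate 1 and 1088 of 1098 in Relapsed replicate 2 lay in 1 cell. In other B cells the red cell list was at 3615 and 212 CPM in Relapsed, against 257 and 246 CPM in Cured. The T cell list of 5 genes, 2 of them at 0, ran from 4.31 to 13.1 CPM in Relapsed and from 10.4 to 13.3 CPM in Cured, and the monocyte list of 5 genes from 871 to 999 CPM in Relapsed and from 1068 to 1237 CPM in Cured. In other B cells the monocyte list stood at 982 and 1006 CPM in Relapsed, against 971 and 966 CPM in Cured. Ctss, a gene of that list, ran from 494 to 605 CPM in selected cells and from 492 to 597 CPM in other B cells. The plasma cell list of 6 genes stood at 472 and 517 CPM in Relapsed, against 1333 and 471 CPM in Cured. In Cured replicate 1 the plasma cell gene Jchain alone was at 627 CPM, all from 1 cell. With 10 selected cells left out that held 5 or more UMIs of T, NK, neutrophil, red cell or platelet genes or of Jchain, 4 and 3 in Relapsed and 2 and 1 in Cured, 5 genes passed in place of 16. All 5 were immunoglobulin kappa variable segments and were among the 16. The kappa segments of the 16 lay in few cells of the higher group. Igkv12-38 had UMIs in 2 cells, Igkv6-20 in 5 and Igkv8-16 in 6, and the most, for Igkv15-103 and Igkv3-2, was 19 cells. Gzma, Nkg7, S100a8 and S100a9 are themselves among the genes that chose those cells, so their loss there follows from the choice, and Ccl5 then stood at -0.17. This alternative was chosen after seeing the data.

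Lars2 and Arglu1 rose in Relapsed over many cells. Lars2, the mitochondrial leucyl-tRNA synthetase, was at 1760 and 1281 CPM in Relapsed, against 833 and 980 CPM in Cured. Its log2 fold change was 0.75 ± 0.16 (adjusted p = 0.039, edgeR). Lars2 UMIs were in 77.6% and 74.7% of selected cells in Relapsed (434 cells), against 65.3% and 66.8% in Cured. Arglu1, a splicing and transcription cofactor, was at 75.5 and 67.9 CPM in Relapsed, against 20.7 and 29.9 CPM in Cured, a log2 fold change of 1.47 ± 0.30 (adjusted p = 0.038). With the 10 cells above left out they stood at 0.74 and 1.43 and missed the threshold. They also missed it without Cured replicate 1 (0.63 and 1.25) and without Cured replicate 2 (0.86 and 1.77). In other B cells Lars2 was at 1675 and 1162 CPM in Relapsed, against 1032 and 1092 CPM in Cured. Arglu1 there was at 63.5 and 38.3 CPM in Relapsed, against 33.2 and 41.6 CPM in Cured, which overlapped.

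The next genes by p did not pass. S100a6, a calcium-binding protein, was at 168 and 154 CPM in Relapsed, against 62.1 and 90.9 CPM in Cured (adjusted p = 0.079), and Gigyf1, a translation regulator, was at 58.2 and 32.2 CPM in Relapsed, against 10.4 and 13.3 CPM in Cured (adjusted p = 0.092, edgeR for both). Fos, an immediate early transcription factor, was at 481 and 389 CPM in Relapsed, against 1078 and 628 CPM in Cured (adjusted p = 0.233). Tuba1a, Hspa8 and Arpc1a, a tubulin, a heat shock cognate and an actin-nucleation subunit, stood at -0.92, -0.62 and -0.94 on the log2 scale and did not pass either. Fos and Hspa8 stood in the same order in other B cells, at 543 and 426 CPM for Fos in Relapsed and 1103 and 586 CPM in Cured.

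No list of B cell genes gave a call between the groups. Ighm was at 1788 and 1165 CPM in Relapsed, against 951 and 964 CPM in Cured, a log2 fold change of 0.63 ± 0.17 that did not pass (adjusted p = 0.257). Ighd stood at 0.52 ± 0.21 (adjusted p = 0.614). Single libraries moved both: without Relapsed replicate 1 Ighm stood at 0.29 and Ighd at 0.10, and without Relapsed replicate 2 at 0.90 and 0.85. Of 23 receptor signalling genes, 16 were above and 7 below 0, with a median of 0.13 and 0 calls, where Pik3ap1 stood at 1.13 and Prkcb at 0.72. Of 23 transcription factors 16 were above 0, with a median of 0.18. Pax5 was at 218 and 111 CPM in Relapsed, against 76.9 and 106 CPM in Cured, a log2 fold change of 0.79 that ran from 0.27 without Relapsed replicate 1 to 1.23 without Relapsed replicate 2. Of 16 immediate early genes 10 were below 0, with a median of -0.17, and Dusp1 stood at -0.68 and Zfp36 at -0.52. The median over all genes tested was 0.0015. Of the 10 mature follicular genes 5 were above 0 and 5 below. Vpreb3 in selected cells stood at 0.29 ± 0.14 on the log2 scale, which the rule's own threshold bears on.

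The difference between groups was also compared between selected and other B cells. Of 9268 genes, 15 passed this interaction test (0.162%), 5 with a higher (0.0539%) and 10 with a lower (0.108%) effect in selected cells, and 401 (4.33%) had an unadjusted p under 0.05. Of the 15, 8 were immunoglobulin variable segments and 1 was a Rik gene, beside Jchain, Ccl6, Nkg7, Gzma, Hp and Lars2. All 424 Jchain UMIs of the selected cells, an antibody joining chain gene of plasma cells, came from 1 cell of Cured replicate 1. Lars2 had an interaction of 0.31 ± 0.07 on the log2 scale (adjusted p = 0.0298, edgeR) and stood at -0.36 with cells thinned to equal depth. It missed the test without Relapsed replicate 2 (0.26) and without Cured replicate 1 (0.22).

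Lambda-dominant cells were more common among selected cells at full depth, but not at equal depth. By constant genes (more Iglc1, Iglc2 and Iglc3 UMIs than Igkc UMIs), 58.6%, 79.8%, 80.1% and 81.3% of selected cells were lambda-dominant, against 53.7%, 74.9%, 73.1% and 75.6% of other B cells (Relapsed 1 and 2, Cured 1 and 2). The mean difference was 5.63 ± 0.992 percentage points (SD, n = 4), higher in selected cells in 4 of 4 libraries, with an exact two-sided sign-flip p of 1 in 8, the smallest that 4 libraries allow. Iglc2 UMIs were found in 91.0% of selected cells and 88.8% of other B cells, so this measure does not sort cells by light chain type. By variable segments, a measure added after seeing the data, 7.69%, 9.64%, 7.28% and 7.12% of selected cells had more lambda than kappa UMIs, against 6.64%, 6.95%, 6.30% and 6.41% of other B cells. With at least 5 light chain UMIs and 80% of them lambda, the means were 27.8% of selected cells and 26.7% of other B cells, a difference of 1.12 ± 0.812 points. With cells thinned to equal depth the difference of the constant genes was 0.047 ± 2.63 points, higher in selected cells in 2 of 4 libraries. The summed levels of Iglc2 and Iglc3 stood at 0.03 and -0.02 on the log2 scale, selected over other B cells, and did not pass the test.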

How the data were processed

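Single-cell RNA of blood leukocytes was measured by 10x Genomics 5′ sequencing in 4 libraries of 3 pooled mice each. The deposited values are UMI counts per gene and barcode, made by the authors with Cell Ranger 3.1.0 on mm10, per the submitters' processing notes. From these counts, barcodes with at least 200 genes and at most 10% mitochondrial UMIs were kept, and the cell rule was applied to raw UMIs. CPM was computed here from UMIs summed over the cells of a library and class.

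The members and gene lists were chosen with earlier results of these data known. Sums were tested with edgeR 4.0.16 (quasi-likelihood, TMM, filterByExpr with a minimum count of 10, robust) in R 4.3.3, with Benjamini-Hochberg adjustment over all genes tested and a threshold of 0.05. Selected and other B cells were compared with the library as a block. DESeq2 1.42.0, other filters, thinning to 1000 UMIs, and leaving out each library were alternatives. The fits were tested on simulated data.

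Named genes between groups passed the test without overlap of libraries at a mean of at least 20 CPM, filled to 6 per direction by p. Between classes they passed in the same direction in every library at 50 CPM or more in the higher class, up to 12 per direction by fold. Genes of the cell rule, variable segments, and mitochondrial, ribosomal, haemoglobin and predicted genes were set apart. Of each gene list described, the 3 members with the smallest p were named. Some genes that this rule names are not reported here. No doublet caller was run. Cells above the 95th percentile of UMIs were left out as an alternative. Exact intervals of shares and pooled levels cover counting error only, and intervals of fold changes come from the edgeR fit.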

Additional observations from a re-analysis of the deposited data

Results flagged for a closer look

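For 6 named genes the difference between Relapsed and Cured was not the same in selected and in other B cells, by edgeR's interaction test. The values below are the log2 difference in selected cells minus that in other B cells. Jchain stood at -19.78, from 424 UMIs in 1 cell of Cured replicate 1, and with 0 counts in the other libraries' selected cells this fitted value is no bound. It missed the test without Relapsed replicate 2, and also without Cured replicate 1 (-8.50). Nkg7 stood at 8.79, from 1 cell in each Relapsed library and 0 UMIs in Cured, and is likewise no bound. Gzma stood at 4.26 and Ccl6 at -4.24. Hp, the haptoglobin gene, stood at -5.03, from 1 and 0 UMIs in selected cells of Relapsed against 11 and 12 in those of Cured, and is no bound either. It missed the test without Relapsed replicate 1 (-8.83) and without Relapsed replicate 2 (-4.36). Hp was at 2.16 and 0 CPM in selected cells of Relapsed, against 16.3 and 13.3 CPM in those of Cured. Lars2 stood at 0.31, with UMIs in 434 selected cells of Relapsed, and in 171 and 225 of the 2 Cured libraries.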

How the results depend on the processing

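Counts of genes past the test moved with the settings. Between Relapsed and Cured within selected cells 16 passed, against 9 with DESeq2, 52 with no count filter, 4 with thinned cells, 9 without high-UMI cells, 5 without cells of other-lineage UMIs (chosen after seeing the data) and 1 with Cd93 cells alone. Leaving out 1 library gave 32 to 373, with 373 without Relapsed replicate 2. Between selected and other B cells 39 passed, against 62 with Cd93 cells alone (16 cells; 58 of the 62 lower, a median over all genes of -1.78, and 3 of the 37 still tested among them, so the counts are not comparable), 78 with no count filter, 1 with no library block and 83 without cells of 1 Vpreb3 UMI. DESeq2 called 31, and 22 of the 39 were among them. Thinned cells gave 26, with 3 of the 37 still tested among them. The interaction gave 15, against 0 with Cd93 cells alone (edgeR, 18 at an unadjusted p under 0.05), 4 with DESeq2, 31 with no count filter and 32 to 61 without 1 library. Over all B cells 0 passed, against 7 with DESeq2, 169 with no count filter, 4 thinned, and 2, 8, 12 and 1177 without 1 library, the last without Relapsed replicate 2.

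The share's log2 ratio of 0.065 was 0.66 in the thinned draw reported, 0.54, 0.50 and 0.41 in further draws past the threshold and 0.47 in one that missed it (added after seeing the data), and -0.0296 to 0.17 without 1 library, reversed at -0.0296 without Relapsed replicate 2 and -0.0231 without Cured replicate 1. With the replicate block 56 genes passed between groups. Deviations of same-numbered libraries correlated at 0.012. With 2 libraries per group both pairs give this 1 value, and whether same-numbered libraries share a batch was not settled by it.

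Values near 0 changed sign. Cr2 was 0.00524 without cells of 1 Vpreb3 UMI, 0.00196 without cells of 10 or more, 0.0307 without high-UMI cells and -0.0348 to 0.00914 without 1 library. Cxcr5 was 0.00434 with RLE factors, 0.00221 with no library block, 0.0102 without cells of 10 or more Vpreb3 UMIs, 0.00196 without precursor transcripts and -0.148 to 0.0523 without 1 library. Icosl was 0.0908 thinned, 0.000571 without cells of 1 Vpreb3 UMI, 0.00215 without cells of 10 or more, 0.00901 without other-lineage cells, 0.0607 without high-UMI cells and -0.0767 to 0.0334 without 1 library. With no count filter, which shifts the median of all genes to -0.11, Cd24a was -0.00909, Ighm -0.0168 and Cd74 -0.0148. Thinned, Cd22 was -0.143, Cd74 -0.0213, Rtp4 -0.314, the Nkg7 interaction -0.0709 and the Lars2 interaction -0.36. Between groups Ccl5 was -0.17 without other-lineage cells and -0.24 without high-UMI cells, where the Nkg7 interaction was -0.22. The cause was not tested. With 2 pools per group and this depth, low transcripts could not be compared.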
